A study of Mus musculus with 4 samples.

Results

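This account covers the genes that lie beside Olig1 on mouse chromosome 16. The members were chosen by name as neighbours of the targeted gene: Ifnar1, Ifnar2, Il10rb, Ifngr2, Tmem50b, Gart, Son, Donson, Itsn1 and Synj1. Every probe set that the platform annotation assigns to exactly 1 of these genes was taken, which gave 22 probe sets for 9 of the 10 genes, out of 22626 non-control probe sets and 12393 named genes. No probe set was assigned to Synj1, so it is not analysed here. The study set neural stem cells of Olig1 KO embryos against those of wild-type embryos, with 3 Olig1 KO arrays and 1 wild-type array. Both groups were taken at embryonic day 14.5 from the ganglionic eminences, a ventral part of the forebrain from which interneurons and the first oligodendrocyte precursors arise. Both had a C57/Bl6 background and were cultured without serum, with EGF. The labels do not say how the Olig1 allele was made, whether any DNA of another strain flanks it, or whether each KO sample is its own embryo or culture. The spread behind the p-values is therefore only that of these arrays and may be technical. In such bulk RNA, fewer cells of a type and less RNA per cell cannot be told apart. The comparison addressed here is whether transcripts of genes next to the targeted locus differ in the mutant cells.

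Olig1 and its paralogue Olig2 encode basic helix-loop-helix transcription factors of the oligodendrocyte lineage and stand next to each other on the chromosome. On one side they are followed by a cluster of class II cytokine receptor genes. Ifnar1 and Ifnar2 encode both chains of the type I interferon receptor, Ifngr2 the signalling chain of the interferon gamma receptor, and Il10rb a chain shared by the receptors for interleukin 10, interleukin 22 and interferon lambda. These receptors signal through Janus kinases to STAT transcription factors. The genes beyond the cluster serve unrelated tasks: purine synthesis (Gart), splicing (Son), DNA replication (Donson) and endocytosis (Itsn1). Synj1, on the Olig2 side, encodes a phosphoinositide phosphatase that acts in vesicle uncoating. In the RefSeq order of protein-coding genes, counted from Olig1, Ifnar2 is number 1, Il10rb 2, Ifnar1 3, Ifngr2 4, Tmem50b 5, Gart 7, Son 8, Donson 10 and Itsn1 12.

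The 250 bases before the annotated transcript start were read for the 9 listed genes with an entry in the RefSeq promoter table, build GRCm38.p6, which gave 10 windows because Synj1 has 2 starts, whose windows overlap. Basic helix-loop-helix factors bind the E-box, CANNTG, which reads the same on both strands. It was present in the windows of Ifnar2 and Tmem50b only among these 9 genes, 2 of 10 windows, whereas 66.2% of 32817 mouse promoter windows of this length held it. The listed windows were rich in G and C, between 54.0% for Ifnar2 and 79.6% for Donson, against a median of 52.4% over all windows. A match is a description of the letters, and its absence says nothing of binding. Both windows with an E-box are shown, in capitals, beside those of Ifngr2 and Son, the genes whose probe sets differed most among themselves.
Ifnar2 (chr16:91372533-91372782, plus strand): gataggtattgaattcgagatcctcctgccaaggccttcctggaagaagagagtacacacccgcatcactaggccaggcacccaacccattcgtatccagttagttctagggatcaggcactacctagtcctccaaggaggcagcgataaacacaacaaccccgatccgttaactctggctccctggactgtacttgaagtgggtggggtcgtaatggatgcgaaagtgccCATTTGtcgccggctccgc
Tmem50b (chr16:91597681-91597930, minus strand): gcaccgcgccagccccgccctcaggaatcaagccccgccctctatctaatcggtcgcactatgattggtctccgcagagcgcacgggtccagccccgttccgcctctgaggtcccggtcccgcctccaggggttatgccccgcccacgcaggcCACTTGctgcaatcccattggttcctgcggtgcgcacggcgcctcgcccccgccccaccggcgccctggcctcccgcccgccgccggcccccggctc
Ifngr2 (chr16:91546809-91547058, plus strand): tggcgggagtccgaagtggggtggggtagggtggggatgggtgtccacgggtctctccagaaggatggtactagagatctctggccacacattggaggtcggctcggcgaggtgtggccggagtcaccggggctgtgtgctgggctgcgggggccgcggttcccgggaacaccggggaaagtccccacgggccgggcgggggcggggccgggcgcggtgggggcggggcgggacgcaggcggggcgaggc
Son (chr16:91647574-91647823, plus strand): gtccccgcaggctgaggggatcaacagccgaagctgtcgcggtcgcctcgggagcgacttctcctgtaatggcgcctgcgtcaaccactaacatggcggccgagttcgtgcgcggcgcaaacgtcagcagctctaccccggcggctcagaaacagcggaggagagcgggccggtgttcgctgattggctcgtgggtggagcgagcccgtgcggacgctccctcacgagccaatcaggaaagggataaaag
Gart and Son are transcribed away from each other, from starts 852 bases apart. The GC box, GGGCGG on either strand, was found in 7 of the 10 windows, against 32.7% of all windows. The interferon gamma element TTCNNNGAA, which reads the same on both strands, was found in the Ifnar2 window alone of the 10, against 7.01% of all windows.

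Markers of the labelled cell type were measured on every array. All 10 neural stem cell markers, Sox2 and Nes among them, were above background in each, with a summed signal of 39238 to 58577 in the KO arrays and 41916 in the wild-type array. Most of each sum came from Fabp7 and Vim. The markers moved in both directions in KO replicate 3, whose sum was highest. Sox2 (4848, wild type 4073), Fabp7 and Vim were above wild type there, and the other markers of the list, such as Nes (846, wild type 1719), were below it. The background of an array was set as its brightest among 27 bacterial controls that had no target, between 21.3 (replicate 1) and 87.8 (replicate 3) in the KO arrays and 30.5 in the wild-type array. Microglia and macrophages also carry interferon receptors. Of 8 of their markers, 3 to 6 were above background in the KO arrays and 3 in the wild-type array. Their sums were 351 to 482 in the KO arrays and 345 in the wild-type array. Csf1r (119 to 201 in the KO arrays, wild type 144) and Cd68 (70.0 to 120, wild type 83.1) were above background in all 4 arrays. Ptprc and C1qa were at background in all 4 arrays. The KO arrays did not form a uniform group. Xist, the RNA of the inactive X chromosome, gave 8472, 161 and 46.5 in KO replicates 1, 2 and 3 and 9480 in the wild-type array, which pairs the wild-type array with KO replicate 1. Eif2s3y, a gene of the Y chromosome, gave 1.53, 654 and 1160 in KO replicates 1, 2 and 3 and 0.61 in the wild-type array. By both genes the wild-type array and KO replicate 1 read as female and KO replicates 2 and 3 as male. A difference of KO replicates 2 and 3 from wild type is thus also one between the sexes. For beta-actin, whose 3' over 5' signal is a gauge of RNA integrity, this ratio was 1.25, 1.30 and 1.82 in KO replicates 1, 2 and 3 and 1.11 in the wild-type array, so that KO replicate 3 stood apart. The median signal of the 18S ribosomal RNA controls was 7.24, 946 and 2823 in KO replicates 1, 2 and 3, against 4.64 in the wild-type array. The sample titles, too, number KO replicates 2 and 3 and leave KO replicate 1 without a number. The targeted gene itself did not separate the labels: its only probe set gave 3840, 4438 and 8548 in the KO arrays (mean 5608 ± 2563, SD, n = 3) and 7618 in the wild-type array, and the part of the gene it measures is not known here. Olig2 gave 4939, 3411 and 2694 in the KO arrays and 4278 in the wild-type array. Directions below rest on the labels.

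None of the neighbouring genes passed the test for a difference between Olig1 KO and wild type. Signals were compared as log2(signal + 14.4), and the 40% of probe sets with the lowest mean were left out, so that 18 of the 22 probe sets, from 8 genes, were tested among 13575. By limma with Benjamini-Hochberg adjustment, 0 of the 18 passed in the direction of KO higher and 0 in that of KO lower at the 0.05 threshold, beside 0.00% of all tested probe sets in each direction. At an unadjusted p under 0.05, 0 of the 18 were counted, against 1.30% of tested probe sets higher and 1.08% lower in KO. All 3 KO arrays lay above the wild-type array for 5 of the 18, against 22.6% of all tested probe sets, and below it for 5 of the 18, against 23.3%. For the other 8 the wild-type signal lay within the KO range. Both shares are near those of the whole array, and as many members lay above wild type as below it. Their median log2 difference was 0.060, beside -0.011 over all tested probe sets, and 13 of the 18 differed by less than 0.5. A mean difference of at least 1 log2 unit upward was found for 0 of the 18, against 1.47% of all tested probe sets. Downward, it was found for 2 (11.1%), of Ifngr2 and Son, against 2.05%. Both were at background in KO replicate 3, and without that array their differences were -0.79 (Ifngr2) and -0.73 (Son).

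**Figure D1:**
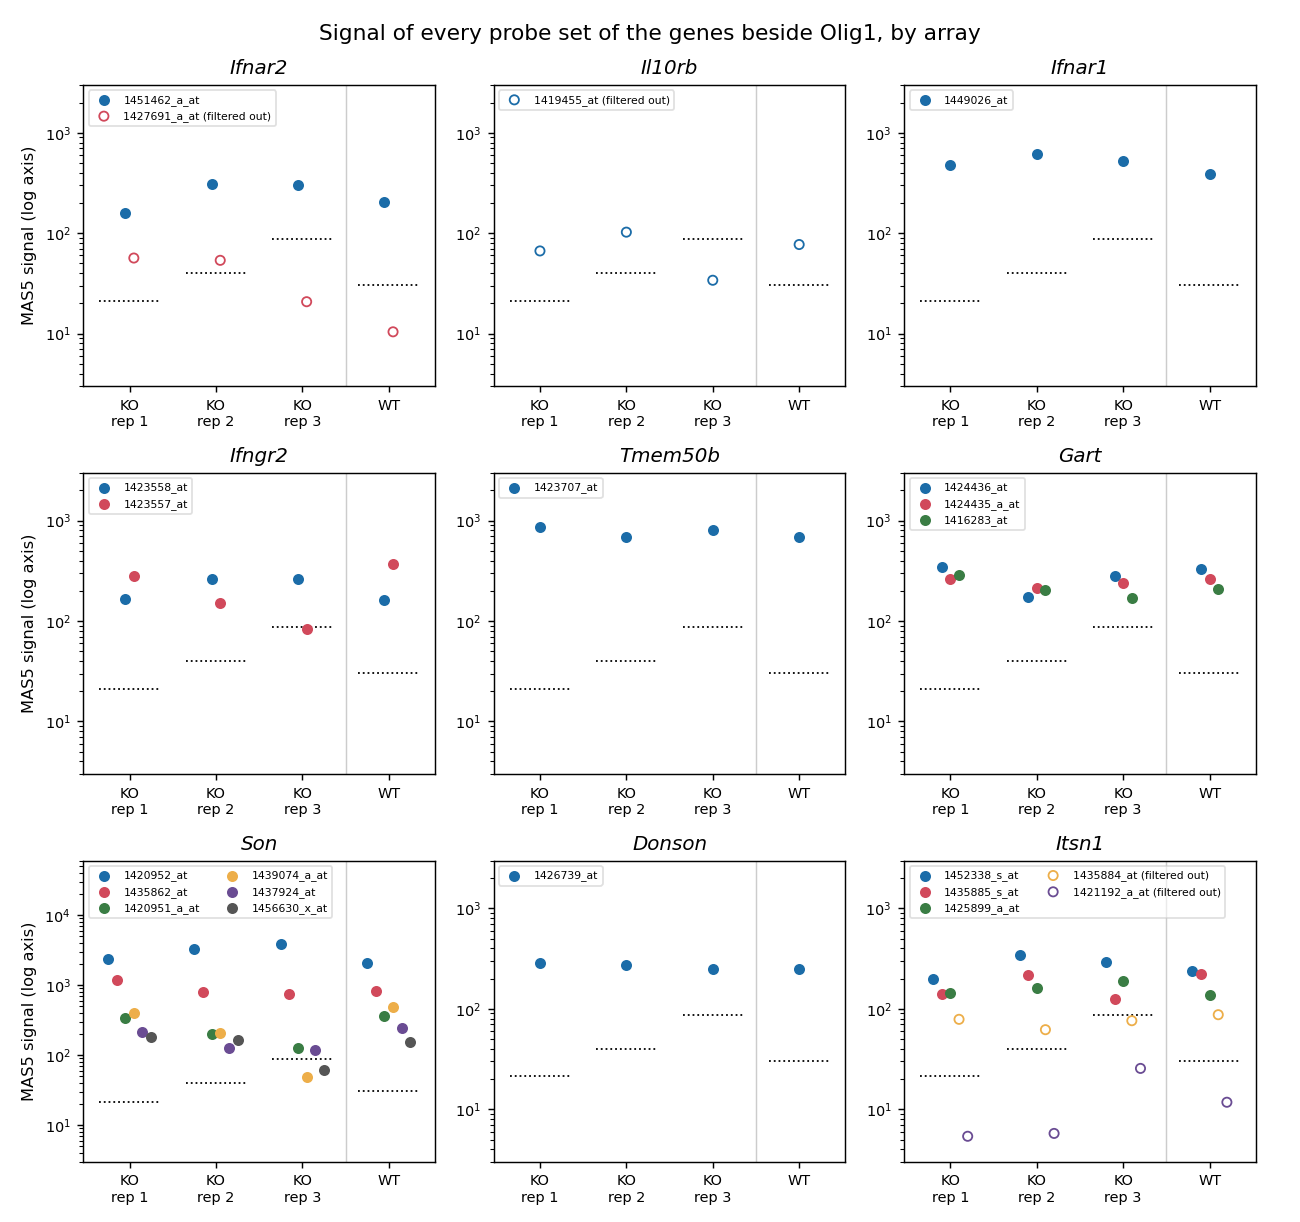
MAS5 signal (log axis) of all 22 probe sets of the 9 measured genes in the 3 Olig1 KO arrays and the wild-type (WT) array, 1 colour per probe set within a gene. Hollow points failed the filter on low values, and dotted lines mark the background of each array, which is highest in KO replicate 3 at 87.8.

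The receptor genes next to Olig1 gave no called difference, and their KO values lay on both sides of the wild-type value. Ifnar1 gave signals of 478, 613 and 523 in KO replicates 1, 2 and 3, against 389 in the wild-type array. All KO values lay above wild type, at a mean of 538 ± 68.8 (SD, n = 3). The log2 difference of 0.45 had an SE of 0.34 and did not pass (limma adjusted p = 0.999). The tested probe set of Ifnar2 gave 158, 313 and 303 in the KO arrays and 204 in the wild-type array, which therefore fell between KO replicate 1 and the other KO arrays (log2 difference 0.26, SE 0.46). The second Ifnar2 probe set, left out as dim, gave 56.6, 53.7 and 20.8 in the KO arrays and 10.4 in the wild-type array. Both the wild-type value and that of KO replicate 3 were at background, so no size can be given for this difference. The only Il10rb probe set was also left out as dim, at 66.6, 102.5 and 34.0 in the KO arrays and 77.2 in the wild-type array, with KO replicate 3 at background. The wild-type value of Il10rb lay inside the KO range.

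Ifngr2 gave opposite readings with its 2 probe sets. The first, 1423558_at, gave 166, 260.4 and 264 in KO replicates 1, 2 and 3 and 161 in the wild-type array, a log2 difference of 0.45 (SE 0.39). The second, 1423557_at, gave 279, 152 and 83.0 in the KO arrays and 367 in the wild-type array, which lay -1.18 from wild type on the log2 scale (SE 0.59) and did not pass (limma adjusted p = 0.999). Every KO array was thus above wild type by one probe set and below it by the other. The value of 83.0 was at background in KO replicate 3, so that the true signal there is known only as a bound. In KO replicate 1, the array that shares its Xist level with wild type, the differences were 0.043 and -0.38. The differences in KO replicate 2 were 0.65 and -1.20, and in KO replicate 3 they were 0.67 and -1.97.

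Of 17 listed partners of these receptors, 13 had a probe set and 9 were tested. None passed, 0 had an unadjusted p under 0.05, against 1.80% of all tested genes taken with 1 probe set each, and all 3 KO arrays lay above wild type for 5 of the 9 and below it for 2, against 23.5% and 20.5% of those genes. Their median log2 difference was 0.30, beside 0.0013 over all of them. By array, the list's median differences from wild type were 0.071, 0.32 and 0.099 in KO replicates 1, 2 and 3. Jak2, the kinase bound to the Ifngr2 chain, gave 687, 742 and 792 in the KO arrays and 456 in the wild-type array (log2 difference 0.68, SE 0.32). Stat3, the STAT used by the interleukin 10 receptor, gave 861, 1082 and 512 in the KO arrays and 555 in the wild-type array (0.48, SE 0.47). The Jak2 values did not overlap between the groups, while those of Stat3 did. Neither passed the test (limma adjusted p = 0.999 for both).

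**Figure D2:**
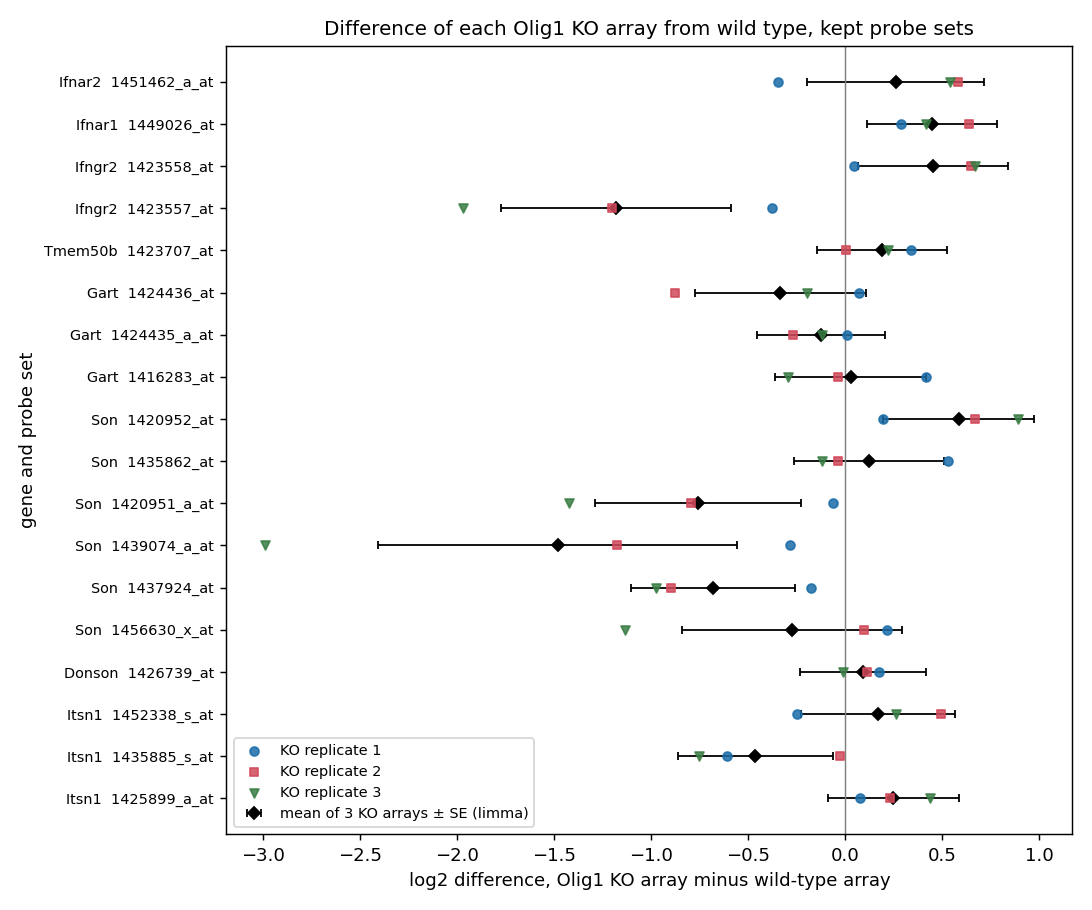
Log2 difference of each Olig1 KO array from the wild-type array for the 18 tested probe sets, with the limma mean ± SE as black diamonds. Circles (KO replicate 1) stay within -0.61 and 0.53, while the triangles (KO replicate 3) reach -2.99 for 1 probe set of Son.

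Tmem50b, Gart and Donson differed little between the groups. Tmem50b, which encodes a membrane protein of the secretory pathway, gave 872, 688 and 801 in the KO arrays and 685 in the wild-type array (log2 difference 0.19, SE 0.34). The KO values all stood above wild type, KO replicate 2 by only 0.0054 on the log2 scale. Donson encodes a protein of the replication fork, and its values were close together. It gave 287, 274 and 250.5 in the KO arrays and 252 in the wild-type array, with a difference of 0.093 on the log2 scale (SE 0.32) and KO replicate 3 just below wild type.

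Gart, whose product catalyses several steps of purine synthesis, had 3 tested probe sets with log2 differences of -0.33 (SE 0.44), -0.13 (SE 0.33) and 0.028 (SE 0.39). The first, 1424436_at, gave 344, 172 and 283 in KO replicates 1, 2 and 3 against 327 for wild type. The second, 1424435_a_at, gave 264, 216 and 241 in the KO arrays against 263 for wild type. The last, 1416283_at, gave 285, 204 and 168 in the KO arrays against 209.7 for wild type. By all 3 probe sets KO replicates 2 and 3 were below both the wild-type array and KO replicate 1, as were 28.0% of all tested probe sets. The 3 probe sets measure 1 gene and are not replicates. By 1416283_at the log2 difference of KO replicate 2 from wild type was only -0.036. KO replicate 1 was at or above wild type by each probe set. For 8 tested partner genes of purine synthesis, KO replicates 2 and 3 were below the other 2 arrays in 6, against 25.2% of all tested genes. All 3 KO arrays were below wild type for 3 of the 8 and above it for 0, against 20.5% and 23.5% of all tested genes, and none passed the test. The list's median log2 differences from wild type were 0.078, -0.40 and -0.38 in KO replicates 1, 2 and 3. Impdh1, an enzyme of guanine nucleotide synthesis, gave 312, 247 and 420.2 in the KO arrays and 455 in the wild-type array (-0.49, SE 0.39). Mthfd1, which supplies one-carbon units for purines, gave 1202, 759 and 987 in the KO arrays and 1339 in the wild-type array (-0.46, SE 0.38). KO replicates 2 and 3 also stand apart from the other 2 arrays by Xist and by 18S RNA, as above, and the part of either in these values was not tested.

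Of 26 tested replisome genes, the setting in which Donson works, none passed. All 3 KO arrays were above wild type for 4 and below it for 5, against 23.5% and 20.5% of all tested genes. KO replicates 2 and 3 were below the other 2 arrays for 13 of the 26, against 25.2% of all tested genes. Pold1, the catalytic subunit of polymerase delta, gave 336, 311 and 323 in the KO arrays and 469 in the wild-type array (-0.52, SE 0.32). Mcm3, a subunit of the replicative helicase, gave 1441, 640 and 484 in the KO arrays and 1162 in the wild-type array (-0.59, SE 0.60). The groups did not overlap for Pold1 and did for Mcm3.

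Son, which encodes a nuclear speckle protein needed for splicing of weak introns, had 6 tested probe sets whose differences ran in both directions. The first, 1420952_at, gave 2373, 3305 and 3851 in KO replicates 1, 2 and 3 and 2071 in the wild-type array. All KO arrays were higher by this probe set, at 3176 ± 747 (SD, n = 3), or 0.59 on the log2 scale (SE 0.39), which did not pass (limma adjusted p = 0.999). By 3 other probe sets all KO arrays were lower. These were 1420951_a_at, with 343, 201 and 125 in the KO arrays and 358 in the wild-type array, 1437924_at, with 215, 125 and 117 in the KO arrays and 244 in the wild-type array, and 1439074_a_at, with 398, 208 and 48.8 in the KO arrays and 488 in the wild-type array. Their log2 differences were -0.76 (SE 0.53), -0.68 (SE 0.42) and -1.48 (SE 0.92). The last of these was at background in KO replicate 3, so its difference there, -2.99, has no exact size. The remaining Son probe sets had wild-type values inside the KO range: 1435862_at gave 1189.6, 799.7 and 755 in the KO arrays and 820.5 in the wild-type array (0.12, SE 0.39), and 1456630_x_at gave 179.9, 164 and 61.7 in the KO arrays and 153 in the wild-type array (-0.27, SE 0.57). The suffix x marks probes that can also match other sequences, and this probe set was at background in KO replicate 3. In KO replicate 1 the 6 differences lay between -0.28 and 0.53, and the differences past 1 log2 unit were in KO replicates 2 and 3.

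Among 19 tested nuclear speckle and SR splicing factor genes, all 3 KO arrays were above wild type for 9 and below it for 1, against 23.5% and 20.5% of all tested genes, and none passed the test. The median log2 difference was 0.12, and by array it was 0.22, 0.33 and -0.016 in KO replicates 1, 2 and 3. Sf3b1, a core subunit of the U2 particle, gave 2423, 3210 and 4219 in the KO arrays and 2076 in the wild-type array (0.62, SE 0.40). Clk1, a kinase of SR proteins, gave 1391, 2058 and 1628 in the KO arrays and 1123 in the wild-type array (0.57, SE 0.36). For both genes the KO values stood above the wild-type value without overlap.

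Itsn1, which encodes an endocytic scaffold with SH3 domains, had 3 tested probe sets and 2 that were left out. The tested 1452338_s_at gave 199, 344 and 290.1 in the KO arrays and 239.8 in the wild-type array. The values of 1435885_s_at were 141, 218 and 126 in the KO arrays and 222 in wild type. Those of 1425899_a_at were 145, 163 and 190.3 in the KO arrays and 137 in wild type. Their log2 differences were 0.17 (SE 0.40), -0.46 (SE 0.40) and 0.25 (SE 0.34). The wild-type value lay within the KO range for the first, above it for the second and below it for the third. Of those left out, one gave 78.7, 62.1 and 76.3 in the KO arrays and 87.5 in the wild-type array, and the other, 5.39 to 25.5 in the KO arrays and 11.8 in the wild-type array, was at background on all 4 arrays. Of 28 tested genes of clathrin endocytosis and phosphoinositide turnover, all 3 KO arrays were below wild type for 8 and above it for 3 (28.6% and 10.7%, against 20.5% and 23.5% of all tested genes), and none passed. Eps15l1, a clathrin adaptor that works beside intersectins, gave 320.2, 378 and 289.7 in the KO arrays and 197 in the wild-type array (0.69, SE 0.34). Bin1, a membrane-bending amphiphysin, gave 454, 423 and 315 in the KO arrays and 568 in the wild-type array (-0.52, SE 0.36). The KO values of both lay apart from the wild-type value.

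The distance from wild type differed among the KO arrays. On KO replicate 1, 0 of the 18 probe sets differed from wild type by at least 1 log2 unit, against 2.01% of all tested probe sets. On KO replicate 2 these were 2, 1 each of Ifngr2 and Son, against 7.12%. On KO replicate 3 there were 4, 1 of Ifngr2 and 3 of Son, against 13.0%. Of those 4, only Son 1420951_a_at was above background in KO replicate 3, so the differences of the others there have no exact size. The median absolute difference of the members was 0.23, 0.54 and 0.49 in KO replicates 1, 2 and 3, beside 0.20, 0.32 and 0.41 over all tested probe sets. KO replicates 2 and 3 lay together above the other 2 arrays for 6 member probe sets, against 25.3% of all tested probe sets. They lay together below them for 8, against 28.0%. The 8 were probe sets of Gart, Ifngr2 and Son alone, and probe sets of 1 gene are not replicates. Ifngr2 and Son also had a probe set among the 6.

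Some of the disagreeing probe sets of Ifngr2 and Son were designed from the same source sequence. The 2 Ifngr2 probe sets described above are such a pair, and the log2 ratio of 1423557_at to 1423558_at was 0.70, -0.73 and -1.52 in KO replicates 1, 2 and 3 and 1.12 in the wild-type array. Because 1423557_at was at background in KO replicate 3, that array's ratio has no exact size. For Son, the ratio of 1420951_a_at to 1420952_at was -2.74, -3.95 and -4.80 in the KO arrays and -2.48 in the wild-type array, and that of 1439074_a_at to 1456630_x_at was 1.09, 0.32 and -0.27 in the KO arrays and 1.59 in the wild-type array. The KO mean of the first Son ratio stood 1.34 log2 units from wild type, a shift that 37 of 2687 same-source pairs on the array reached, or 1.38%, while the median pair shifted by 0.33. Neither member of the second Son pair exceeded background in KO replicate 3, so the ratio of -0.27 is not a measured one. The same-source pair of Gart shifted by 0.21, a size reached by 67.0% of pairs. Where measured, the Ifngr2 and Son ratios placed the arrays in the order wild type, then KO replicates 1, 2 and 3, which is also their order by the beta-actin 3'/5' ratio and by 18S RNA. The Gapdh ratio, at 0.794, 1.03 and 0.842 in KO replicates 1, 2 and 3 and 0.759 in the wild-type array, was highest in KO replicate 2 instead. The part of RNA integrity or of 18S RNA in these ratios was not tested, and the positions of the probe sets along the transcripts are not known here.

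**Figure D3:**
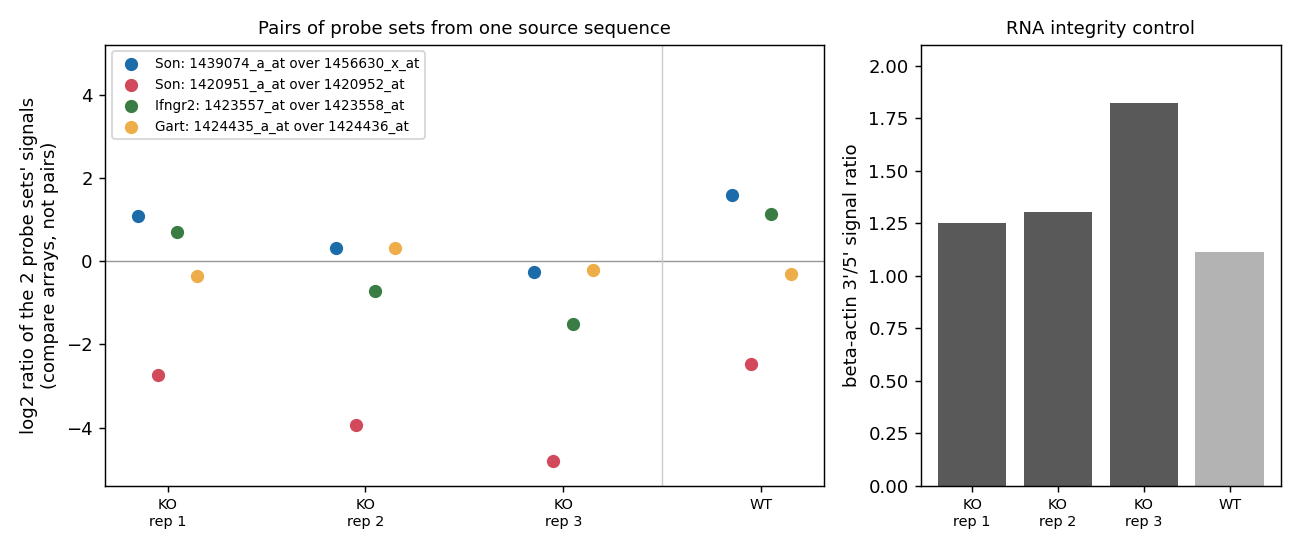
Left, log2 ratio of 2 probe sets designed from the same source sequence, in each Olig1 KO array and the wild-type (WT) array, for the 4 such pairs of the listed genes; only changes between arrays within a pair can be compared. Right, beta-actin 3'/5' signal ratio of the same arrays. The Ifngr2 pair and both Son pairs are lowest in KO replicate 3, where the beta-actin ratio is highest at 1.82, while the Gart pair is not; in that array 1 probe set of the Ifngr2 pair and both of the Son pair with 1439074_a_at were at background.

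The wider surroundings of Olig1 held no called difference either. Of 51 protein-coding genes within 25 places of Olig1, the listed ones included, 36 had a probe set and 26 a tested one, with 45 tested probe sets in all. None passed the test, and all 3 KO arrays lay above wild type for 12 of the 45 and below it for 8, against 22.6% and 23.3% of all tested probe sets. The median log2 difference was 0.080 in the window and -0.0065 over 446 tested probe sets of chromosome 16. Paxbp1, which encodes a nuclear adaptor of Pax3 and Pax7 and lies 3 places from Olig1 on the Olig2 side, was higher in every KO array by both of its tested probe sets. It gave 809, 907 and 1178 in the KO arrays and 579.9 in the wild-type array by the first (0.70, SE 0.36) and 311, 469.9 and 313 in the KO arrays and 213 in the wild-type array by the second (0.71, SE 0.38). The remaining Paxbp1 probe set, left out as dim, gave 30.0, 46.6 and 9.87 in the KO arrays and 46.2 in the wild-type array. All Paxbp1 probe sets were designed from the same source sequence, so the tested ones are not independent readings. Scaf4, 11 places away on that side, encodes a factor of transcript termination, and 1427333_s_at gave 71.5, 127 and 153 in the KO arrays and 39.7 in the wild-type array (1.23, SE 0.45, limma unadjusted p = 0.0296). Setd4, 24 places away on the Ifnar2 side, encodes a SET domain protein, and 1460373_a_at gave 104, 95.0 and 190.2 in the KO arrays and 40.8 in the wild-type array (1.33, SE 0.44, limma unadjusted p = 0.0210). The second tested probe sets of these genes differed by 0.44 for Scaf4 and 0.081 for Setd4. A dim probe set of each gene was left out, with the wild-type value above every KO value and at least 2 KO arrays at background, so no size is given. The KO and wild-type values did not overlap for the tested probe sets of Paxbp1 and Scaf4 and for Setd4 1460373_a_at. These 3 genes were named for the size of their test statistic, a choice that favours such separation. No value here passed the test (limma adjusted p = 0.999).

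**Figure D4:**
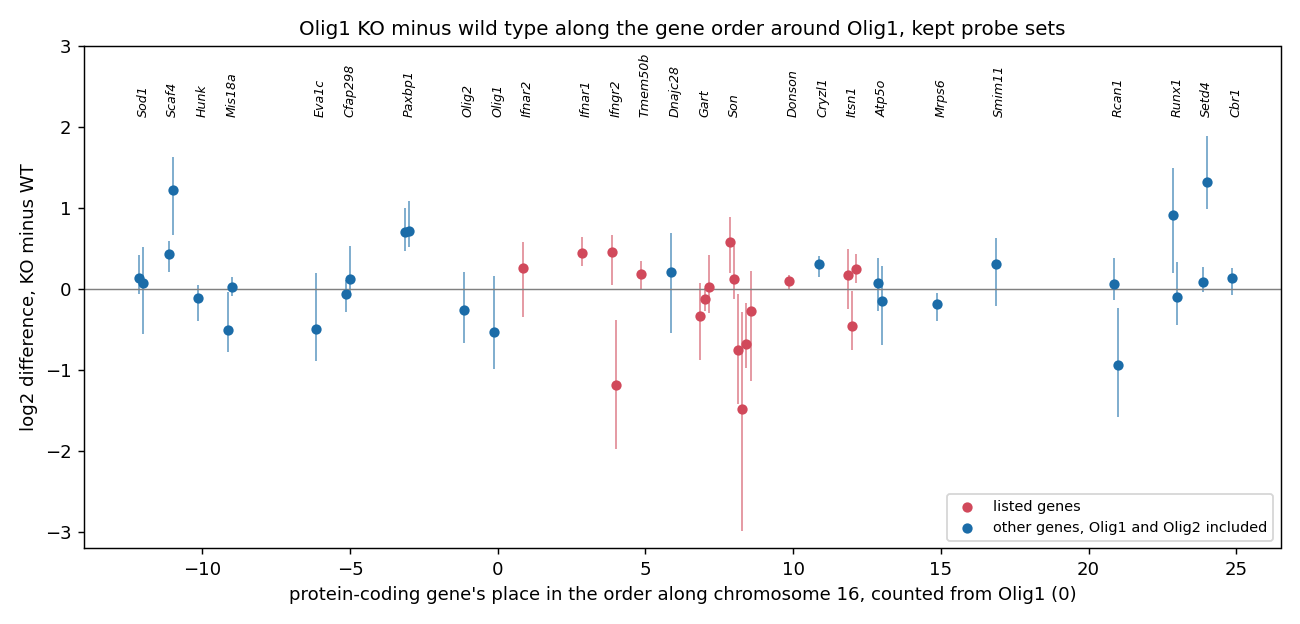
Mean log2 difference of Olig1 KO from wild type (points) and the range over the 3 KO arrays (lines) for tested probe sets of genes around Olig1, against each gene's place in the RefSeq order; names stand above their probe sets. Il10rb and Synj1 have no tested probe set. The listed genes lie on both sides of 0, and the lowest point is a Son probe set at -1.48.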

How the data were processed

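Each deposited value is the linear signal intensity of a probe set on 1 array, made with MAS5 per the submitters' processing notes. The version of MAS5 is not stated there. In the deposited table each array's mean without the top and bottom 2% is about 500.2, so the authors had scaled the arrays alike, and no further normalization was applied. Gene symbols came from the platform annotation, updated by gene identifier through RefSeq GRCm38.p6: 20380 of 22626 non-control probe sets had 1 symbol, 691 several and 1555 none. The RefSeq tables gave gene order and promoter sequence.

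Signals were turned into log2(signal + 14.4), where 14.4 is 0.1 times the median signal, and fold changes on this scale understate the change of dim genes. All 4 arrays were fitted in limma 3.58.1 (R 4.3.3, lmFit and eBayes, two-sided) after leaving out the 40% of probe sets with the lowest mean. Only the 3 KO arrays inform the spread (2 residual and 4.75 prior degrees of freedom), which the fit takes to hold for wild type too, and so few arrays limit the precision. An exact permutation of 4 arrays cannot give a one-sided p below 0.25. KO samples were numbered in the order of deposit. The fit was tested on simulated data. Partner lists and neighbouring genes were named by a rule: called genes, or else the 2 (lists) or 3 (neighbours) with the largest absolute moderated t. The rule favours genes whose KO and wild-type values do not overlap, so a lack of overlap in the named genes is no separate result. The members and lists were chosen with earlier results of these data known. Alternatives covered the pseudocount, filter, scaling, eBayes settings, probe set choice, each KO array left out, the pair of arrays with like Xist signal as a block, and the window around Olig1.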

Additional observations from a re-analysis of the deposited data

How the results depend on the processing

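None of the member probe sets was called under any of the 12 alternative fits, where the lowest adjusted p was 0.514 by limma. Of 206 member values, 198 kept their sign, but the filter and eBayes alternatives cannot change a log2 difference, so this share says little. The 8 turned signs came from the fits without KO replicate 1 (2), without KO replicate 3 (1) and with the array pair as a block (5). Leaving out 1 KO array moved the count of called probe sets over the whole table between 0 and 5, and the median difference of the members between -0.12 and 0.13. The 5 were called without KO replicate 1 and were the sex-linked Xist and Eif2s3y, Tmem87a and 2 probe sets without a symbol here, 1452077_at and 1426438_at. In that fit 4 members, Ifngr2 1423557_at and Son 1439074_a_at, 1420951_a_at and 1437924_at, had an unadjusted p under 0.05, beside 1146 of all 13575 tested probe sets. The fit reported gave 0 members, beside 324 of all tested probe sets, so both counts were higher without KO replicate 1. The 4 were probe sets of Ifngr2 and Son alone. Of them, Ifngr2 1423557_at and Son 1439074_a_at were at background in KO replicate 3. The count of all tested probe sets at an unadjusted p under 0.05 was 324, and it was 622 with no filter, 158 with the lowest 60% left out, 1146 without KO replicate 1, 102 without KO replicate 2 and 173 with the array pair as a block. With 1 KO array left out, Gart 1416283_at ranged from -0.17 to 0.19 and Son 1435862_at from -0.078 to 0.25, both below 0 without KO replicate 1, and Son 1456630_x_at from -0.52 to 0.16, above 0 without KO replicate 3. With the array pair as a block, which leaves KO replicate 1 against wild type, the sign turned for Gart 1424435_a_at (0.0096) and 1424436_at (0.069), Ifnar2 1451462_a_at (-0.34), Itsn1 1452338_s_at (-0.25) and Son 1456630_x_at (0.22). The cause was not tested. No paired analysis was possible because the labels give the groups no shared replicate numbers; the array pair above rests on Xist signal, not on the labels. Signals near background, which reached 87.8 in KO replicate 3, limit what the dim probe sets can show.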
